A study of Mus musculus with 12 samples.

Results

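The collagen genes were followed across the RNA-seq libraries of cultured adult mouse neural stem cells (NSCs). They were taken as every gene of the count table whose symbol has the form Col, a number, a and a number, which gave 42 of 17365 genes. Of these, 31 passed the filter on low counts and were tested, and 11 did not. The NSC lines came from the subventricular zone of wild-type mice 6 to 8 weeks old: ANS4 from the MF1 strain and BL6 from C57BL/6. Each was grown adherent with laminin-1 and N2 and B27 supplements, without serum. Cells were kept in EGF and FGF-2 (the EGF/FGF condition, proliferating NSCs), or treated for 3 days with BMP-4 (BMP, the dormant d-qNSCs) or with BMP-4 and FGF-2 together (BMP/FGF, the primed p-qNSCs), with each factor at 10 ng/ml. Each condition was represented by 4 libraries, 2 of each line. Each line is a single established culture, and the p-values measure the spread between these libraries. Levels are given as CPM, the counts of a gene relative to the library total, scaled by the TMM method. Differences are given as the log2 fold change (log2FC) ± a standard error (SE), with the FDR, the Benjamini-Hochberg adjusted p of edgeR's test over all tested genes. The SE was derived from the test, as the absolute log2FC divided by the square root of the F value. It is least reliable where the log2FC is very small. Values by library are listed as ANS4 replicates 1 and 2 followed by BL6 replicates 1 and 2.

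Collagens are secreted or membrane-bound proteins of the extracellular matrix whose chains wind round each other into a helix, and each gene encodes a chain, not a whole molecule. Fibrillar collagens build cross-banded fibrils, fibril-associated collagens sit on their surface, and type IV collagens form the sheet-like network of basement membranes. Multiplexins are basement membrane collagens that carry glycosaminoglycan chains, and transmembrane collagens are held at the cell surface. In the adult subventricular zone, stem cells touch a laminin- and collagen-rich matrix that is continuous with the basement membrane of blood vessels.

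Library totals ran from 18069052 to 19451818 estimated counts, so that 3 counts, used as the floor of detection, equalled 0.155 to 0.168 CPM. Of the NSC markers, all 10 were present: Sox2 lay between 456 and 755 CPM and Gfap between 92.1 and 1980.1 CPM over all libraries. Nes was lower in quiescence (in EGF/FGF 498 to 625 CPM, against 116 to 141 under BMP and 112 to 119 under BMP/FGF). Fabp7, Egfr and Hes5 were also lower in both quiescent conditions, all without overlap. The rest of the list (Sox2, Slc1a3, Gfap, Vim, Sox9 and Prom1) went the other way, higher in both quiescent conditions without overlap. Gfap did not exceed 155 CPM in proliferating cells, and its lowest library had 889 CPM under BMP and 1870 under BMP/FGF. Of 12 fibroblast and meningeal markers 9 were in the table. Their summed level lay in EGF/FGF at 43.8 to 50.0 CPM, in BMP at 86.6 to 124 and in BMP/FGF at 94.1 to 96.0, most of it from Pdgfra and Thy1. Foxc1 and Tbx15 of the same list went the other way in BMP, and Twist1 did so with overlap, with Foxc1 at 10.4 to 11.7 CPM in EGF/FGF and 6.97 to 8.40 in BMP. Lum, Dpt and Crabp2 had 3 counts or fewer in every library. Of 14 mural and endothelial markers 12 were in the table, with summed levels in EGF/FGF of 8.54 to 11.0 CPM, in BMP of 13.5 to 21.6 and in BMP/FGF of 22.4 to 31.8. Tek of this list went the other way, and Kcnj8 had 3 counts or fewer in every library. The part of these markers in the collagen results was not tested, and in bulk RNA fewer cells of a type and less RNA per cell cannot be told apart.

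When EGF/FGF was replaced, some collagen genes fell, others rose, and Col6a2 fell in BMP but rose in BMP/FGF. Col4a2 and Col2a1 were called in the same way, with limits. The Col4a2 differences were small (log2FC -0.21 and 0.19) and did not pass in all refits. Col2a1 had 1 to 5 counts per BMP library, overlapping EGF/FGF. Col18a1, which encodes the multiplexin that gives rise to endostatin, was 19.1-fold lower in BMP and 13.6-fold lower in BMP/FGF than in EGF/FGF. Col5a3, Col12a1 and Col8a1 fell with it in both quiescent conditions. Col9a1, Col9a2, Col11a2 and Col23a1 rose from low levels, and Col4a5, a type IV chain, rose in BMP and further in BMP/FGF. Between the quiescent states, 14 of the 31 tested members were higher in BMP/FGF, among them Col4a1, Col4a2, Col4a5, Col4a6, Col6a1, Col6a2, Col6a3 and Col9a3. The 6 lower members were Col9a2, Col11a1, Col12a1, Col15a1, Col23a1 and Col28a1. Of all tested genes, 20.1% were higher and 21.3% lower.

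In BMP against EGF/FGF, 11 of the 31 tested collagen genes were higher and 15 lower at an FDR under 0.05, against 40.8% and 38.8% of all 13312 genes tested. With an absolute log2 fold change above 1.5 as well, 9 were higher and 8 lower, where 10.9% and 6.95% of all tested genes passed. In BMP/FGF against EGF/FGF, 18 were higher and 9 lower, against 40.9% and 38.0% of all genes, and 8 and 5 were past 1.5, against 10.6% and 6.08%. In BMP/FGF against BMP, 14 were higher and 6 lower, against 20.1% and 21.3% of all genes, and 3 were higher past 1.5 (Col9a3, Col6a2 and Col2a1), against 0.901% of all genes. The lowest member in that comparison was Col15a1 at -1.26, short of the 1.5 that 0.684% of all genes passed downward. In BL6 alone, 11 were higher in BMP/FGF than in EGF/FGF, and without BL6 BMP/FGF replicate 1, 3 were lower in BMP/FGF than in BMP. The median log2 fold change of the tested collagen genes was -0.15, 0.55 and 0.41 in these comparisons, and that of all tested genes was 0.019, 0.022 and -0.0035. Both comparisons with EGF/FGF share the same 4 EGF/FGF libraries. The counts past 1.5 have a further limit. Col9a1, Col9a2, Col11a2, Col14a1, Col15a1, Col4a3 and Col28a1 had at most 0.362 CPM in any EGF/FGF library and passed the low-count filter only through quiescent conditions. Col2a1 and Col6a3 passed it only through BMP/FGF, and Col3a1 only through EGF/FGF. Large changes of these genes were thus largely set by the filter, and the counts are a description only.

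**Figure D1:**
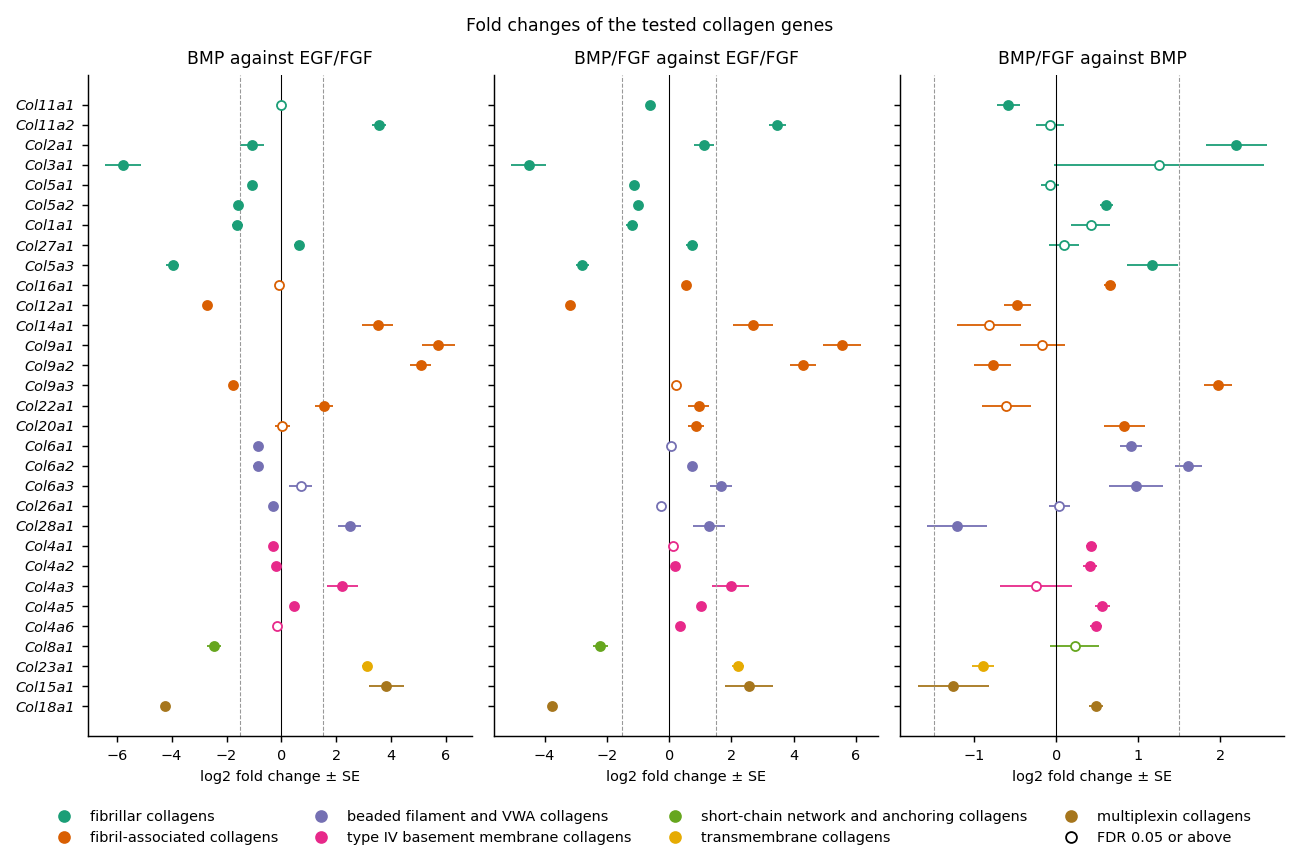
Log2 fold change with its SE for each of the 31 tested collagen genes (rows, coloured by class) in the 3 comparisons. Filled points passed an FDR of 0.05 and open points did not, and dashed lines mark 1.5 on either side of 0. Col18a1, Col3a1, Col5a3, Col12a1 and Col8a1 lie left of the lower dashed line in both comparisons with EGF/FGF. Col9a1, Col9a2, Col11a2, Col23a1, Col14a1, Col15a1 and Col4a3 lie right of the upper line in both.

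The windows upstream of the start sites are shown for 3 genes that fell (Col18a1, Col5a3 and Col8a1) and 3 that rose (Col9a1, Col11a2 and Col23a1), so that the sequences of genes that moved in opposite directions can be set side by side. They come from RefSeq on GRCm38.p6, where 33 of the 42 genes had a window, and run 5′ to 3′ on the gene's strand up to the start site, or up to the first annotated exon base where that came earlier. Capitals mark the GC box GGGCGG on either strand.
Col18a1, chr10:77166549-77166780, minus strand: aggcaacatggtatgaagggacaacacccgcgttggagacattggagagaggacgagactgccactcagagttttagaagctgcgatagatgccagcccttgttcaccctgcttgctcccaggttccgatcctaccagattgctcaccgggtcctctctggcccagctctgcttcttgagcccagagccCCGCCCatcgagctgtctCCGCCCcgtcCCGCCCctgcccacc
Col5a3, chr9:20815068-20815317, minus strand: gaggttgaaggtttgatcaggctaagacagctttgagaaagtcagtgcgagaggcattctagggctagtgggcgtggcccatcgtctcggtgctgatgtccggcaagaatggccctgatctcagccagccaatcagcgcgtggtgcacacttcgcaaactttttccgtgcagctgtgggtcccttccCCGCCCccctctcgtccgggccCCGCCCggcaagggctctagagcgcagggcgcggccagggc
Col8a1, chr16:57754738-57754987, minus strand: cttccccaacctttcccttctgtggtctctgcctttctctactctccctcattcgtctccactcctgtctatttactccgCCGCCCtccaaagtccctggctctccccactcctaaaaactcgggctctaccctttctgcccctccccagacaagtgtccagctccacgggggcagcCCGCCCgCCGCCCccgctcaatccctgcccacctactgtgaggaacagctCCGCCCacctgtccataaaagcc
Col9a1, chr1:24177360-24177609, plus strand: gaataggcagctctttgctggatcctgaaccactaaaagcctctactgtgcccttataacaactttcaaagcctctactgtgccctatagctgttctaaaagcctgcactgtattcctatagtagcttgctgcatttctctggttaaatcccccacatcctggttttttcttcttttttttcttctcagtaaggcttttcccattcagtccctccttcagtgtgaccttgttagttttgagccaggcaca
Col11a2, chr17:34038888-34039137, plus strand: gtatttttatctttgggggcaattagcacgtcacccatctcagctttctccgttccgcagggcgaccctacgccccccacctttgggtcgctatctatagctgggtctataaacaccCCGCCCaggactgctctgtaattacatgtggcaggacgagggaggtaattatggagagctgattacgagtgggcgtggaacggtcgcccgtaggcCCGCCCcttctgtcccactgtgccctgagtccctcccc
Col23a1, chr11:51289670-51289919, plus strand: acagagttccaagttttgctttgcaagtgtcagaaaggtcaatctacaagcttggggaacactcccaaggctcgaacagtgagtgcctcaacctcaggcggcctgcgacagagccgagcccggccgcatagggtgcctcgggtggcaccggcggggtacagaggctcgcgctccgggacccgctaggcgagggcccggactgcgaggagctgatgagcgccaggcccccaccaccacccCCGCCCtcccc

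The GC box was found 3 times in the Col18a1 window, 2 times in that of Col5a3, 4 times in that of Col8a1, 0 times in that of Col9a1, 2 times in that of Col11a2 and 1 time in that of Col23a1, so that it was present in windows of genes that fell and of genes that rose. Col18a1 and Col9a1 each had a second RefSeq start, not shown, whose window held 0. Over the 250 bases upstream of every start, it was present in 21 of 36 collagen windows and in 32.7% of all 32851 windows. The other motifs searched on both strands were AP-1 (TGANTCA, in 1 of 36 collagen windows and 6.75% of all), a GC-rich Smad element (GGCGCC, 4 of 36 and 9.59%) and a Sox element (ACAAT, 2 of 36 and 27.7%). None of these occurred in the 6 windows shown. These are matches of letters only.

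The multiplexins moved apart. Col18a1 stood at 323, 339, 337 and 343 CPM in EGF/FGF, 20.3, 19.9, 15.4 and 15.3 in BMP and 24.2, 27.9, 23.7 and 23.2 in BMP/FGF. All 4 EGF/FGF libraries lay far above the 8 others, and the BMP/FGF libraries lay above the BMP libraries without overlap. Col18a1 fell in BMP (log2FC -4.25 ± 0.084, edgeR FDR 3.61e-17) and in BMP/FGF (log2FC -3.76 ± 0.081, edgeR FDR 1.66e-16), and was 1.4-fold higher in BMP/FGF than in BMP (edgeR FDR 0.000193). Per kilobase of its longest transcript, Col18a1 had the highest level of all collagen genes in EGF/FGF, at 59.9 CPM per kb, and 3.16 and 4.42 CPM per kb in BMP and BMP/FGF. The log2 fold change in BMP was -4.04 in ANS4 and -4.47 in BL6 (difference -0.43 ± 0.11, edgeR interaction FDR 0.0208). Col15a1, the other multiplexin, had at most 4 counts in any EGF/FGF library. It rose to 0.574 to 0.994 CPM in BMP (log2FC 3.82 ± 0.63, edgeR FDR 2.39e-05). It was lower again in BMP/FGF than in BMP (log2FC -1.26 ± 0.44, edgeR FDR 0.0283), and its BMP/FGF libraries lay at 0.168 to 0.539 CPM. These overlapped EGF/FGF, though the rise over EGF/FGF passed the test (log2FC 2.56 ± 0.76, edgeR FDR 0.00522). Within the lines this rise was 6.20 in ANS4, where both EGF/FGF libraries had 0 counts, and 0.87 ± 0.96 in BL6.

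The type IV genes made up a larger share of the summed collagen CPM in the quiescent conditions. The sum of the other classes was lower there, and the type IV sum itself was 602 ± 22.6 CPM in EGF/FGF and 656 ± 74.3 in BMP (SD, n = 4), with overlapping libraries (570.2 to 623 against 560.3 to 722), and 935 ± 71.2 in BMP/FGF. In EGF/FGF libraries the share was 45.6% to 49.7%, in BMP 75.2% to 77.3% and in BMP/FGF 78.1% to 80.4%. Of 6 genes 5 were tested. Against EGF/FGF, 2 rose and 2 fell in BMP and 4 rose in BMP/FGF. The shares of all tested genes that rose and fell were 40.8% and 38.8% in BMP and 40.9% and 38.0% in BMP/FGF. Between BMP and BMP/FGF, 4 rose and the remaining gene did not pass the test, where 20.1% of all tested genes rose and 21.3% fell. These are counts of few genes. Col4a5, a chain of basement membranes that pairs with Col4a6 in some tissues, stood at 283, 276, 233 and 262 CPM in EGF/FGF, 403, 385, 356 and 297 in BMP and 466, 532, 544 and 573 in BMP/FGF. The conditions did not overlap and rose in the order EGF/FGF, BMP, BMP/FGF. Col4a5 was 1.36-fold higher in BMP than in EGF/FGF (log2FC 0.45 ± 0.087, edgeR FDR 0.00014) and 1.48-fold higher in BMP/FGF than in BMP (log2FC 0.56 ± 0.087, edgeR FDR 6.86e-05). Col4a6, which starts 1309 bases from Col4a5 on the opposite strand of chromosome X, stood at 219, 211, 208 and 219 CPM in EGF/FGF, 205, 210.4, 184 and 175 in BMP and 246, 251, 286 and 300.0 in BMP/FGF. In BMP its range overlapped that of EGF/FGF (log2FC -0.15 ± 0.075, edgeR FDR 0.077), and the fall passed the test in BL6 alone (log2 fold change -0.27) and without either ANS4 BMP replicate (-0.18 and -0.20). All 4 BMP/FGF libraries were higher than the other 8 (against BMP, log2FC 0.48 ± 0.075, edgeR FDR 6.53e-05). The count ratio of Col4a5 to Col4a6 in EGF/FGF libraries was 1.12 to 1.31, in BMP 1.69 to 1.96 and in BMP/FGF 1.89 to 2.12.

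The chains of the common basement membrane collagen, Col4a1 and Col4a2, are neighbours on chromosome 8 with start sites 21 bases apart in opposite directions. Col4a1 stood at 100.0, 101, 107 and 105 CPM in EGF/FGF, 93.9, 89.7, 76.1 and 72.5 in BMP and 109, 111, 114 and 112 in BMP/FGF. It was lowest in BMP (against EGF/FGF, log2FC -0.32 ± 0.072, edgeR FDR 0.000538) and 1.35-fold higher in BMP/FGF than in BMP (log2FC 0.43 ± 0.072, edgeR FDR 0.000142), and its difference between BMP/FGF and EGF/FGF did not pass the test (log2FC 0.11 ± 0.071, edgeR FDR 0.173). Col4a2 stood at 20.4, 20.2, 20.8 and 19.7 CPM in EGF/FGF, 19.5, 19.5, 16.7 and 14.5 in BMP and 22.5, 23.3, 23.6 and 23.3 in BMP/FGF. The same order held, with a fall in BMP (log2FC -0.21 ± 0.086, edgeR FDR 0.0322) and a higher level in BMP/FGF than in BMP (log2FC 0.41 ± 0.086, edgeR FDR 0.00113). The fall of Col4a2 in BMP did not pass in ANS4 alone (-0.057) nor without any of the BL6 EGF/FGF or BL6 BMP replicates (-0.21 to -0.13). Its small rise in BMP/FGF over EGF/FGF (log2FC 0.19 ± 0.085, edgeR FDR 0.0446) failed under 15 of 22 alternatives, among them those that left out either ANS4 EGF/FGF replicate, ANS4 BMP/FGF replicate 2, BL6 EGF/FGF replicate 2 or either BL6 BMP/FGF replicate (0.17 to 0.21). The count ratio of Col4a1 to Col4a2 in EGF/FGF libraries was 4.89 to 5.33, in BMP 4.56 to 5.00 and in BMP/FGF 4.76 to 4.84. The remaining pair, Col4a3 and Col4a4, chains of the specialised basement membranes of kidney and lung, starts 72 bases apart on chromosome 1. Col4a3 rose from 0.052 to 0.31 CPM in EGF/FGF to 0.521 to 0.939 in BMP (log2FC 2.22 ± 0.57, edgeR FDR 0.00169) and 0.112 to 1.17 in BMP/FGF (log2FC 1.98 ± 0.59, edgeR FDR 0.00555). Of the exonic bases of Col4a3, 5.65% overlap C430014B12Rik on the other strand. Reads of Col4a3 and C430014B12Rik from these bases cannot be told apart if the library kit did not mark strand. Col4a4 was not tested, and had 41 summed counts in BMP against 8 in EGF/FGF, a ratio of 5.3 with an exact 95% interval of 2.45 to 13.1.

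**Figure D2:**
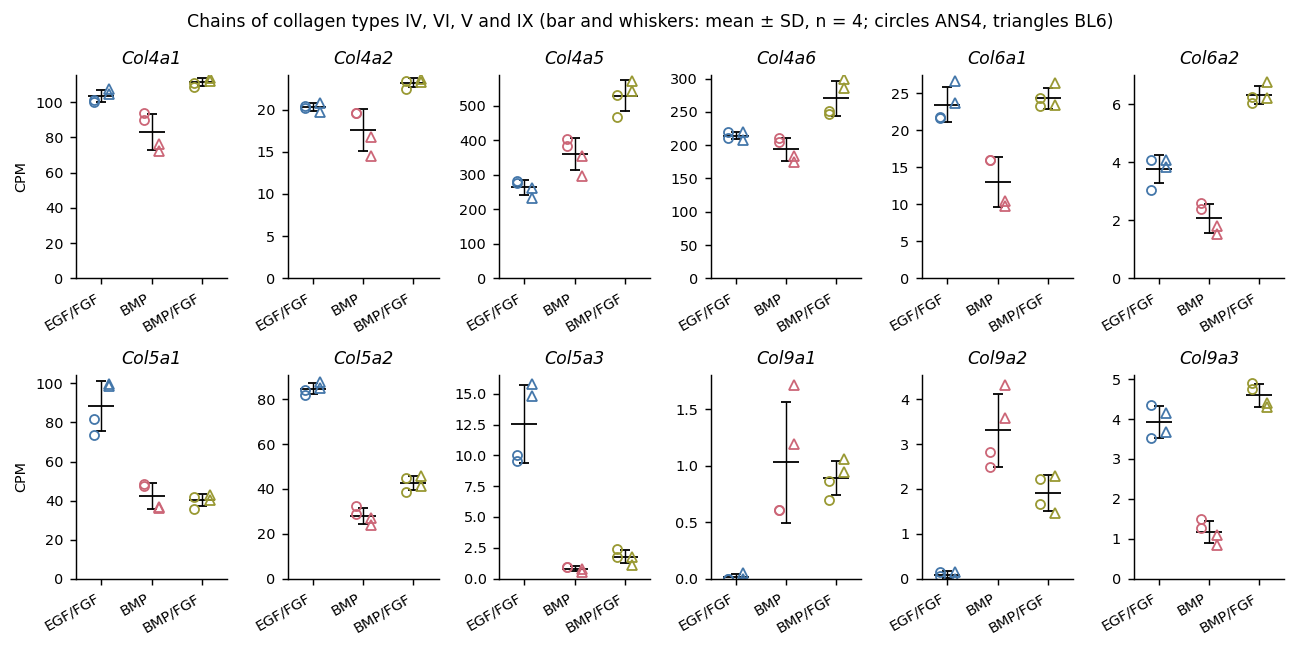
CPM of 12 collagen chains in every library by condition, on axes that start at 0, with bars and whiskers for the mean and SD of 4 libraries (circles, ANS4, and triangles, BL6). Col9a3 is low in BMP where Col9a1 and Col9a2 are high, and Col6a1 and Col6a2 are lowest in BMP.

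Of 11 fibrillar genes, 9 were tested. Against EGF/FGF, 2 rose and 6 fell in BMP, and 3 rose and 6 fell in BMP/FGF. Of all tested genes, 40.8% rose and 38.8% fell in BMP, and 40.9% and 38.0% in BMP/FGF. Their summed level was 212 ± 16.3 CPM in EGF/FGF, 98.7 ± 5.41 in BMP and 106 ± 6.35 in BMP/FGF (SD, n = 4). Most of it came from type V, a minor component of fibrils that regulates their diameter. Col5a1 stood at 73.5, 81.8, 98.5 and 99.6 CPM in EGF/FGF, 47.5, 48.7, 36.4 and 36.9 in BMP and 35.8, 41.6, 43.1 and 40.3 in BMP/FGF. The EGF/FGF libraries were higher than all others, and BMP and BMP/FGF overlapped. Col5a1 fell in BMP (log2FC -1.06 ± 0.11, edgeR FDR 8.15e-08) and in BMP/FGF (log2FC -1.13 ± 0.11, edgeR FDR 3.47e-08), and the difference between BMP/FGF and BMP did not pass the test (log2FC -0.077 ± 0.11, edgeR FDR 0.617). Col5a2 stood at 84.2, 81.8, 85.1 and 87.8 CPM in EGF/FGF, 32.5, 28.7, 27.0 and 24.0 in BMP and 38.9, 44.9, 41.5 and 45.9 in BMP/FGF. It fell 3.03-fold in BMP (log2FC -1.60 ± 0.082, edgeR FDR 4.66e-12), and its level in BMP/FGF lay between the others without overlap, above BMP (log2FC 0.61 ± 0.083, edgeR FDR 1.89e-05).

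Col5a3, the chain that replaces others in a form of type V, stood at 9.58, 10.0, 15.8 and 14.8 CPM in EGF/FGF, 0.939, 0.941, 0.518 and 0.782 in BMP and 1.78, 2.43, 1.12 and 1.79 in BMP/FGF. It fell most of the type V chains, 15.6-fold in BMP (log2FC -3.96 ± 0.24, edgeR FDR 4.19e-11) and 6.92-fold in BMP/FGF (log2FC -2.79 ± 0.21, edgeR FDR 9.37e-10), and the conditions did not overlap. BMP/FGF was above BMP (log2FC 1.17 ± 0.31, edgeR FDR 0.00576). The count ratio of Col5a1 to Col5a3 in EGF/FGF libraries was 6.24 to 8.16, in BMP 47.2 to 70.2 and in BMP/FGF 17.2 to 38.6. Col3a1, a chain of fibrils in elastic tissues and vessels, stood at 0.932, 1.24, 0.833 and 1.34 CPM in EGF/FGF, 0, 0, 0 and 0.0521 in BMP and 0, 0.108, 0 and 0.0559 in BMP/FGF. It had 84 summed counts in EGF/FGF against 1 in BMP, a ratio of 81.2 with an exact 95% interval of 14.2 to 3244 (edgeR FDR 2.36e-07). Col1a1, the main chain of type I collagen in bone, skin and tendon, stood at 1.81, 2.07, 2.03 and 2.17 CPM in EGF/FGF, 0.718, 0.609, 0.726 and 0.574 in BMP and 0.808, 0.862, 0.95 and 0.894 in BMP/FGF. Low as it was, it fell in BMP (log2FC -1.61 ± 0.21, edgeR FDR 1.05e-06) and BMP/FGF (log2FC -1.20 ± 0.20, edgeR FDR 2.22e-05) without overlap, while its partner Col1a2 had 0 to 3 counts in every library.

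Type XI chains, fibrillar chains of cartilage that are related to type V, behaved unlike each other. Col11a1 stood at 23.6, 20.4, 18.3 and 20.4 CPM in EGF/FGF, 16.4, 15.8, 27.8 and 23.2 in BMP and 12.2, 13.0, 16.0 and 13.6 in BMP/FGF. In BMP, the ANS4 libraries lay below and the BL6 libraries above those of the same line in EGF/FGF, and the difference over both lines did not pass the test (log2FC -0.015 ± 0.13, edgeR FDR 0.923). In BMP/FGF it was lower than in EGF/FGF (log2FC -0.60 ± 0.14, edgeR FDR 0.000675) and than in BMP (log2FC -0.59 ± 0.14, edgeR FDR 0.00259). Col11a2 stood at 0.207, 0.155, 0.208 and 0.31 CPM in EGF/FGF, 3.2, 2.27, 2.54 and 2.61 in BMP and 2.1, 2.64, 2.63 and 2.68 in BMP/FGF. It rose 11.7-fold in BMP (log2FC 3.55 ± 0.26, edgeR FDR 7.5e-10) and 11.1-fold in BMP/FGF (log2FC 3.47 ± 0.27, edgeR FDR 1.29e-09), and these overlapped with each other. The count ratio of Col11a1 to Col11a2 in EGF/FGF libraries was 65.7 to 132, in BMP 5.12 to 11.0 and in BMP/FGF 4.94 to 6.11. Of the others, Col27a1, a fibrillar chain of growing cartilage, was higher in BMP (log2FC 0.65 ± 0.20, edgeR FDR 0.0058) and BMP/FGF (log2FC 0.74 ± 0.19, edgeR FDR 0.00203), with levels of 1.6 to 2.39, 2.43 to 3.84 and 2.68 to 4.1 CPM in EGF/FGF, BMP and BMP/FGF. Col2a1, the main cartilage collagen, lay in EGF/FGF at 0.26 to 0.517 CPM, in BMP at 0.0518 to 0.276 and in BMP/FGF at 0.726 to 0.862. It was higher in BMP/FGF than in BMP (log2FC 2.20 ± 0.37, edgeR FDR 0.000166) and than in EGF/FGF (log2FC 1.12 ± 0.32, edgeR FDR 0.00372). Its fall in BMP against EGF/FGF (log2FC -1.08 ± 0.43, edgeR FDR 0.0302) came with overlapping libraries and 1 to 5 counts per BMP library.

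**Figure D3:**
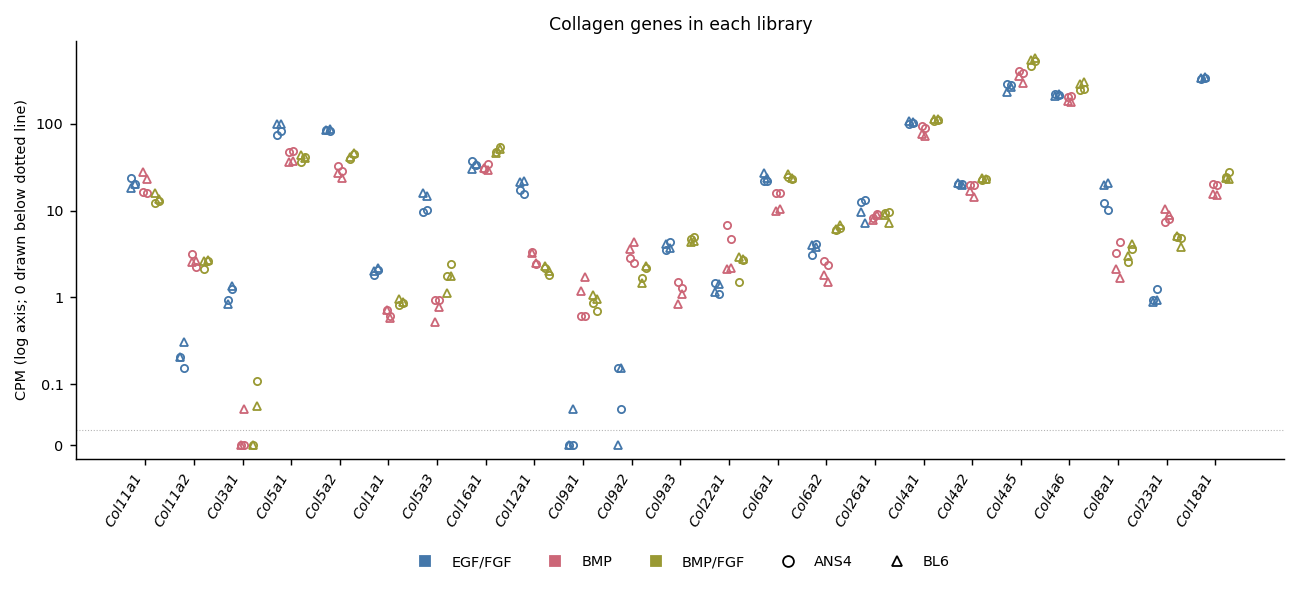
CPM of the 23 collagen genes given library by library, on a log axis, ordered by class from fibrillar (left) to multiplexin (right), with libraries at 0 drawn below the dotted line. Colour marks the condition and shape the line. The EGF/FGF points of Col18a1 lie more than 10 times above the others, and those of Col9a1 and Col9a2 lie at or below 0.155 CPM.

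Of 9 fibril-associated genes 8 were tested. Against EGF/FGF, 4 rose and 2 fell in BMP, and 6 rose and 1 fell in BMP/FGF. From BMP to BMP/FGF, 3 rose and 2 fell. These are counts of few genes. Of all tested genes, 40.8% rose and 38.8% fell in BMP, and 40.9% and 38.0% in BMP/FGF. From BMP to BMP/FGF, 20.1% of all tested genes rose and 21.3% fell. Type IX collagen decorates cartilage fibrils and is built from the products of Col9a1, Col9a2 and Col9a3. Col9a1 stood at 0, 0, 0 and 0.0517 CPM in EGF/FGF, 0.607, 0.609, 1.19 and 1.72 in BMP and 0.862, 0.701, 1.06 and 0.95 in BMP/FGF. It was all but absent from EGF/FGF, with 78 summed counts in BMP against 1 in EGF/FGF, a ratio of 80.7 with an exact 95% interval of 14.1 to 3228 (edgeR FDR 7.56e-08), and BMP and BMP/FGF overlapped. Col9a2 stood at 0.155, 0.0517, 0 and 0.155 CPM in EGF/FGF, 2.82, 2.49, 3.58 and 4.33 in BMP and 1.67, 2.21, 1.45 and 2.29 in BMP/FGF. It had 248 summed counts in BMP against 7 in EGF/FGF, a ratio of 36.7 with an exact 95% interval of 17.5 to 92.1 (edgeR FDR 1.06e-09). Col9a2 was lower in BMP/FGF than in BMP (log2FC -0.78 ± 0.23, edgeR FDR 0.0107), a call that did not pass in ANS4 alone (-0.45) nor without BL6 BMP/FGF replicate 1 (-0.60). Col9a3 stood at 3.52, 4.34, 4.16 and 3.67 CPM in EGF/FGF, 1.49, 1.27, 0.829 and 1.09 in BMP and 4.74, 4.9, 4.3 and 4.41 in BMP/FGF. It moved the other way: it fell 3.35-fold in BMP (log2FC -1.75 ± 0.17, edgeR FDR 3.58e-08) and was 3.92-fold higher in BMP/FGF than in BMP (log2FC 1.97 ± 0.17, edgeR FDR 1.09e-07), back within the EGF/FGF range or just above it (log2FC 0.22 ± 0.14, edgeR FDR 0.152). Col9a3 counts were 0.232 to 0.529 times Col9a2 counts in BMP libraries and 1.93 to 2.96 times in BMP/FGF libraries. Of the exonic bases of Col9a3, 6.07% overlap Tcfl5 on the other strand.

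Type XII and type XVI collagens lie on fibrils and near basement membranes. Col12a1 stood at 17.1, 15.5, 21.0 and 21.9 CPM in EGF/FGF, 3.37, 2.44, 3.27 and 2.5 in BMP and 2.16, 1.83, 2.29 and 2.01 in BMP/FGF. The EGF/FGF libraries were the highest and those of BMP/FGF the lowest, with a fall of 6.47-fold in BMP (log2FC -2.69 ± 0.13, edgeR FDR 1.58e-12) and 9.02-fold in BMP/FGF (log2FC -3.17 ± 0.14, edgeR FDR 3.61e-13). The small difference between BMP/FGF and BMP (log2FC -0.48 ± 0.17, edgeR FDR 0.0282) did not pass in either line alone (-0.54 in ANS4 and -0.42 in BL6) nor without 5 of the libraries in turn (ANS4 BMP replicate 1, ANS4 BMP/FGF replicate 2, BL6 BMP replicate 1 and both BL6 BMP/FGF replicates, -0.49 to -0.34). Col16a1 stood at 36.8, 33.6, 30.2 and 34.4 CPM in EGF/FGF, 30.3, 34.8, 31.2 and 29.4 in BMP and 46.8, 53.8, 45.8 and 50.8 in BMP/FGF. BMP and EGF/FGF overlapped (log2FC -0.10 ± 0.076, edgeR FDR 0.218), and all BMP/FGF libraries were higher than the other 8 (against BMP, log2FC 0.65 ± 0.075, edgeR FDR 2.85e-06). Col22a1, a chain of tissue junctions, stood at 1.45, 1.09, 1.14 and 1.45 CPM in EGF/FGF, 6.74, 4.7, 2.13 and 2.19 in BMP and 1.51, 2.69, 2.91 and 2.74 in BMP/FGF. The ANS4 BMP libraries were the highest, and the lines differed in BMP as described further on. Over both lines it rose in BMP (log2FC 1.56 ± 0.32, edgeR FDR 0.000241) and in BMP/FGF (log2FC 0.95 ± 0.34, edgeR FDR 0.0167), the latter not without ANS4 EGF/FGF replicate 2 or either BL6 BMP/FGF replicate (0.78 to 0.82). Col14a1 rose from 0 to 2 counts per library in EGF/FGF to 0.498 to 0.828 CPM in BMP, with 49 summed counts in BMP against 4 in EGF/FGF, a ratio of 12.7 with an exact 95% interval of 4.65 to 48.4 (edgeR FDR 2.19e-05). Col20a1 overlapped between EGF/FGF and BMP (log2FC 0.031 ± 0.27, edgeR FDR 0.92) and was higher in BMP/FGF than in BMP (log2FC 0.83 ± 0.25, edgeR FDR 0.0124).

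Type VI collagen forms beaded filaments around cells, and its chains share a von Willebrand factor A domain with Col28a1. Of 7 genes in this list 5 were tested. Against EGF/FGF, 1 rose and 3 fell in BMP, and 3 rose and 2 did not pass the test in BMP/FGF. Between BMP and BMP/FGF, 3 rose and 1 fell. The shares of all tested genes that rose and fell were 40.8% and 38.8% in BMP and 40.9% and 38.0% in BMP/FGF. Between BMP and BMP/FGF they were 20.1% and 21.3%. Col6a1 stood at 21.7, 21.8, 26.7 and 23.7 CPM in EGF/FGF, 16.0, 16.0, 9.8 and 10.5 in BMP and 24.4, 23.3, 26.4 and 23.4 in BMP/FGF. It fell in BMP (log2FC -0.86 ± 0.13, edgeR FDR 1.21e-05) and was 1.88-fold higher in BMP/FGF than in BMP (log2FC 0.91 ± 0.13, edgeR FDR 3.96e-05), where it overlapped EGF/FGF (log2FC 0.051 ± 0.13, edgeR FDR 0.722). Col6a2 stood at 3.05, 4.08, 4.06 and 3.82 CPM in EGF/FGF, 2.6, 2.38, 1.81 and 1.51 in BMP and 6.04, 6.25, 6.2 and 6.76 in BMP/FGF. The conditions did not overlap: Col6a2 fell in BMP (log2FC -0.86 ± 0.17, edgeR FDR 0.000183) and in BMP/FGF exceeded both EGF/FGF (log2FC 0.75 ± 0.15, edgeR FDR 0.000187) and BMP (log2FC 1.61 ± 0.16, edgeR FDR 6.99e-07). Col6a3, the largest type VI chain, was low, in EGF/FGF at 0.103 to 0.312 CPM, in BMP at 0.313 to 0.552 and in BMP/FGF at 0.539 to 1.06. It rose in BMP/FGF over EGF/FGF (log2FC 1.67 ± 0.36, edgeR FDR 0.000403). Col28a1 was higher in BMP than in EGF/FGF (log2FC 2.48 ± 0.43, edgeR FDR 4.46e-05) and lower in BMP/FGF than in BMP (log2FC -1.21 ± 0.37, edgeR FDR 0.0134), with 0.883 to 1.05 CPM in BMP. Col26a1, placed in this list though it carries no such domain, stood at 12.5, 13.1, 9.68 and 7.23 CPM in EGF/FGF, 8.23, 9.08, 7.78 and 8.97 in BMP and 9.27, 9.65, 8.89 and 7.26 in BMP/FGF. Its libraries overlapped in every pair of conditions, and its fall in BMP (log2FC -0.30 ± 0.13, edgeR FDR 0.0389) did not pass in BL6 alone (-0.027) nor without any ANS4 EGF/FGF or ANS4 BMP replicate, BL6 EGF/FGF replicate 1 or BL6 BMP replicate 1 (-0.31 to -0.23).

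Col8a1, a short chain that forms hexagonal sheets under endothelia, was the member of its list that was tested. It stood at 12.2, 10.2, 19.7 and 20.8 CPM in EGF/FGF, 3.26, 4.32, 2.13 and 1.67 in BMP and 2.59, 3.61, 3.02 and 4.13 in BMP/FGF. It fell 5.43-fold in BMP (log2FC -2.44 ± 0.25, edgeR FDR 7.48e-08) and 4.64-fold in BMP/FGF (log2FC -2.21 ± 0.25, edgeR FDR 2.03e-07) without overlap, and BMP and BMP/FGF overlapped (log2FC 0.23 ± 0.30, edgeR FDR 0.575). Col23a1, a transmembrane collagen whose outer part can be shed, stood at 0.932, 1.24, 0.885 and 0.93 CPM in EGF/FGF, 7.4, 8.03, 10.3 and 8.97 in BMP and 4.96, 4.8, 5.03 and 3.85 in BMP/FGF. All conditions were apart, with a rise of 8.64-fold in BMP (log2FC 3.11 ± 0.17, edgeR FDR 1.18e-11) and 4.65-fold in BMP/FGF (log2FC 2.22 ± 0.18, edgeR FDR 3.59e-09), and BMP/FGF was below BMP (log2FC -0.89 ± 0.14, edgeR FDR 5.94e-05).

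The summed level of all 42 collagen genes was 1265 ± 23.2 CPM in EGF/FGF, 856 ± 87.9 in BMP and 1180.3 ± 77.1 in BMP/FGF (SD, n = 4), given as a description. The BMP libraries, at 745 to 935 CPM, were lower than all others, and EGF/FGF (1251 to 1300.1) and BMP/FGF (1076 to 1256) overlapped. Without Col4a5 the sums were 1002, 496 and 652 CPM, so that BMP/FGF no longer lay near EGF/FGF. Col18a1 gave 335, 17.7 and 24.7 CPM of the full sums, which therefore depended on this gene as well. Sums without Col18a1 were not computed. The multiplexins gave 335 ± 8.86 CPM of the sum in EGF/FGF, 18.5 ± 2.88 in BMP and 25.1 ± 2.20 in BMP/FGF. Per kilobase of the longest transcript, Col18a1 (59.9 CPM per kb), Col4a5 (40.3) and Col4a6 (32.3) were the most abundant in EGF/FGF, and Col4a5 (55.1 in BMP and 80.9 in BMP/FGF), Col4a6 (29.1 and 40.7) and Col4a1 (12.6 and 16.8) in the quiescent conditions.

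**Figure D4:**
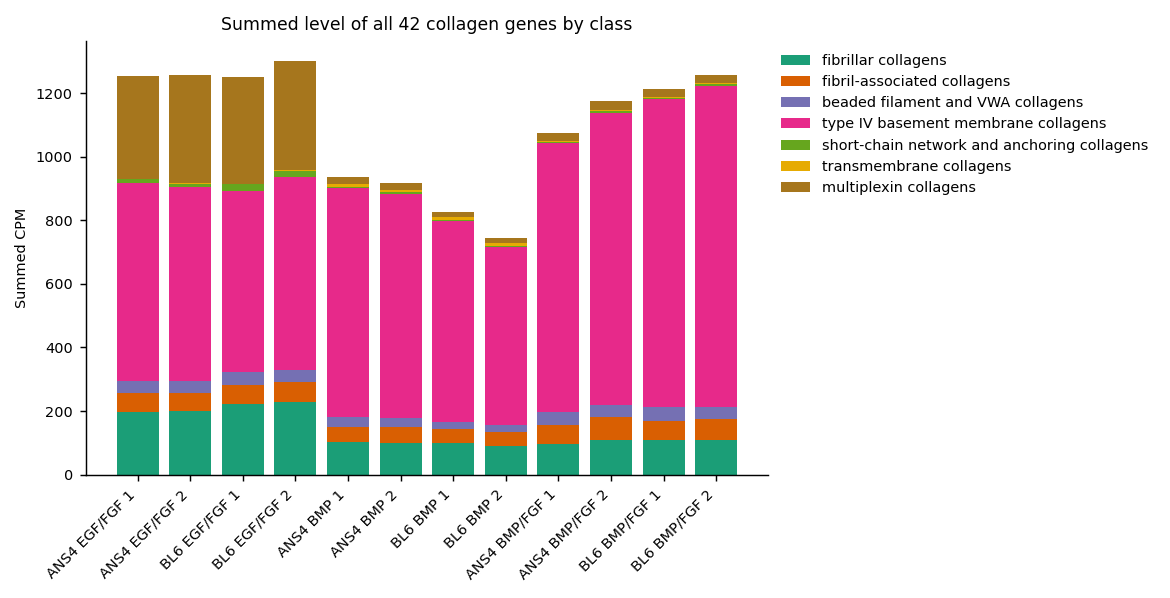
Summed CPM of all 42 collagen genes in each of the 12 libraries, as stacked bars coloured by class. The multiplexin segment, nearly all Col18a1, is large in the 4 EGF/FGF libraries only, and the type IV segment is the largest in every library.

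Responses of some members differed between the lines. The difference (line by condition interaction) passed an FDR of 0.05 for 7 of 31 tested members in BMP against EGF/FGF, where 9.02% of all tested genes did, for 1 in BMP/FGF against EGF/FGF (4.98%) and for 7 in BMP/FGF against BMP (13.5%). Col8a1 fell by different amounts in BMP, with log2 fold changes of -1.57 in ANS4 and -3.41 in BL6 (difference -1.85 ± 0.28, edgeR interaction FDR 0.000578). The Col6a1 values in the same comparison were -0.44 in ANS4 and -1.31 in BL6 (difference -0.87 ± 0.14, edgeR interaction FDR 0.00133). For Col5a1 they were -0.69 in ANS4 and -1.43 in BL6 (difference -0.74 ± 0.11, edgeR interaction FDR 0.000578). The BL6 line thus had the larger fall in these 3 genes and in Col4a1 (-0.13 in ANS4 and -0.51 in BL6 (difference -0.38 ± 0.088, edgeR interaction FDR 0.0116)). Col11a1 had values of opposite sign, -0.45 in ANS4 and 0.40 in BL6 (difference 0.85 ± 0.16, edgeR interaction FDR 0.00361). Col22a1 had its larger rise in ANS4, 2.17 in ANS4 and 0.73 in BL6 (difference -1.44 ± 0.43, edgeR interaction FDR 0.0458). Between BMP/FGF and BMP, the BL6 values exceeded those of ANS4 for Col4a1, Col4a5, Col4a6, Col5a1, Col6a1, Col8a1 and Col22a1. The signs were opposite for Col22a1, -1.44 in ANS4 and 0.39 in BL6 (difference 1.83 ± 0.37, edgeR interaction FDR 0.00397). They were also opposite for Col8a1 (-0.29 in ANS4 and 0.91 in BL6) and Col5a1 (-0.31 in ANS4 and 0.19 in BL6). In BMP/FGF against EGF/FGF, Col5a3 was the member that differed, -2.22 in ANS4 and -3.39 in BL6 (difference -1.17 ± 0.30, edgeR interaction FDR 0.031). This count was 0 without any of 6 libraries (all EGF/FGF replicates, ANS4 BMP/FGF replicate 2 and BL6 BMP/FGF replicate 1) and 3 without either BL6 BMP replicate. In BMP against EGF/FGF the count was 4 without ANS4 BMP replicate 1, and in BMP/FGF against BMP it was 3 without ANS4 BMP/FGF replicate 1 and 4 without either BL6 BMP/FGF replicate. Line, mouse strain and culture cannot be told apart. Of all replicate pairs, the BL6 BMP libraries differed most from each other, and they enter both comparisons that include BMP.

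**Figure D5:**
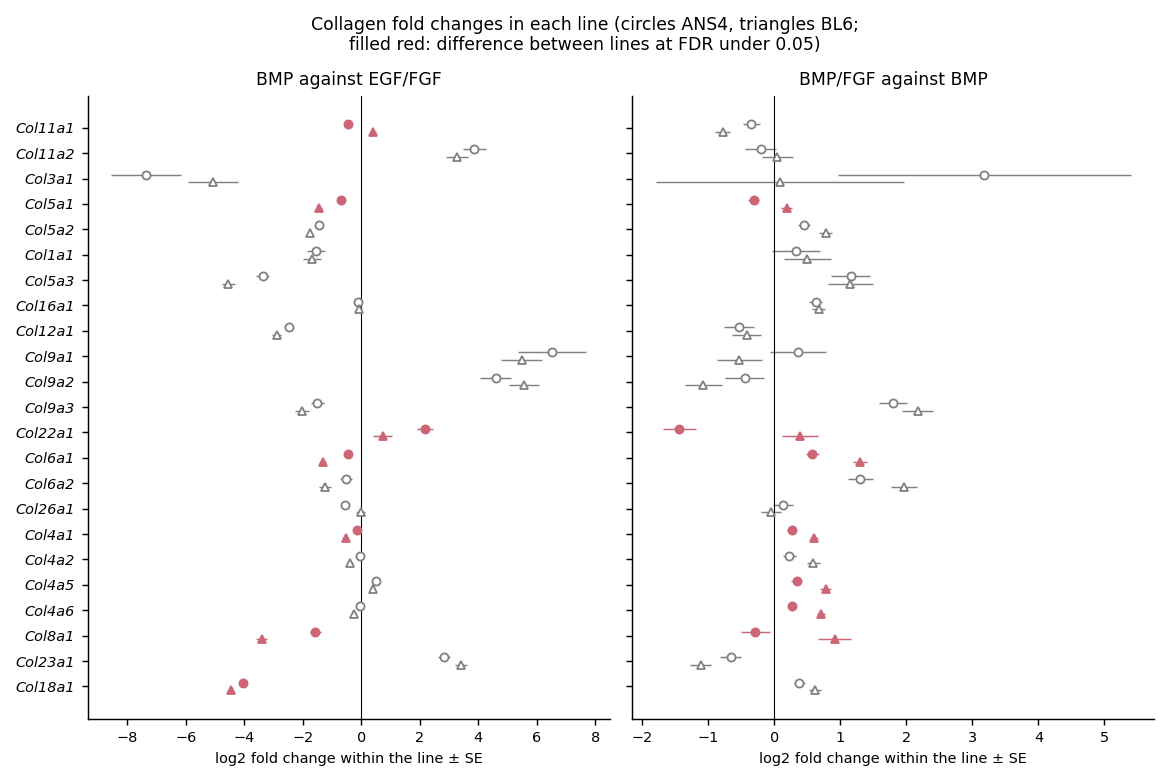
Log2 fold change with its SE in ANS4 (circles) and in BL6 (triangles) for the 23 collagen genes given library by library, in BMP against EGF/FGF (left) and BMP/FGF against BMP (right). Filled red symbols mark a difference between the lines at an FDR under 0.05. On the right, among the filled symbols, the ANS4 and BL6 values of Col22a1, Col8a1 and Col5a1 lie on opposite sides of 0.

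The genes that make, process and bind collagen were also counted. Beside their counts, 40.8% of all tested genes rose and 38.8% fell in BMP, 40.9% and 38.0% did so in BMP/FGF against EGF/FGF, and 20.1% were higher and 21.3% lower between BMP/FGF and BMP. Over these 4 lists, 23 of the 51 tested genes were higher and 5 lower in BMP/FGF than in BMP, and the lower count was 3 without any of the ANS4 BMP or ANS4 BMP/FGF replicates. Of 23 folding and secretion genes, all were tested. Against EGF/FGF, 4 rose and 15 fell in BMP, and 7 rose and 8 fell in BMP/FGF. From BMP to BMP/FGF, 14 rose and 9 did not pass the test (median log2 fold changes -0.29, -0.066 and 0.29). Colgalt1, which adds galactose to collagen hydroxylysine, fell in BMP (41.9 ± 2.09 against 122 ± 3.15 CPM, log2FC -1.54 ± 0.063, edgeR FDR 1.91e-13) and in BMP/FGF (49.4 ± 4.24 against 122 ± 3.15 CPM, log2FC -1.31 ± 0.062, edgeR FDR 1.6e-12). Crtap, a partner in prolyl 3-hydroxylation, was lower in BMP than in EGF/FGF (16.7 ± 1.18 against 40.5 ± 4.3 CPM, log2FC -1.28 ± 0.088, edgeR FDR 2.61e-10) and higher in BMP/FGF than in BMP (25.9 ± 1.45 against 16.7 ± 1.18 CPM, log2FC 0.63 ± 0.09, edgeR FDR 2.74e-05). P3h3 and P3h4, which act with the lysyl hydroxylase in the endoplasmic reticulum, had higher levels in BMP/FGF than in BMP (19.9 ± 1.87 against 13.7 ± 1.12 CPM, log2FC 0.54 ± 0.088, edgeR FDR 0.000103 for P3h3 and 10.2 ± 0.697 against 7.03 ± 0.84 CPM, log2FC 0.53 ± 0.11, edgeR FDR 0.00124 for P3h4). P4ha3, a prolyl 4-hydroxylase subunit, was low but rose in BMP (1.92 ± 0.706 against 0.22 ± 0.21 CPM, log2FC 3.07 ± 0.45, edgeR FDR 6.04e-06) and BMP/FGF (2.94 ± 0.447 against 0.22 ± 0.21 CPM, log2FC 3.70 ± 0.42, edgeR FDR 2.87e-07). Creb3l1, a membrane-bound transcription factor of secretory cells, rose in BMP/FGF over EGF/FGF (24.0 ± 1.08 against 10.5 ± 2.87 CPM, log2FC 1.21 ± 0.11, edgeR FDR 8.05e-09).

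Of 14 genes for propeptide removal and cross-linking 9 were tested. Against EGF/FGF, 1 rose and 5 fell in BMP, and 2 rose and 3 fell in BMP/FGF. Between BMP and BMP/FGF, 4 rose and 1 fell (medians -0.38, -0.024 and 0.27). Adamts14, a protease that removes the amino propeptide of fibrillar procollagens, fell in BMP (4.7 ± 0.66 against 170.2 ± 19.1 CPM, log2FC -5.17 ± 0.10, edgeR FDR 3.61e-17) and in BMP/FGF (13.5 ± 1.43 against 170.2 ± 19.1 CPM, log2FC -3.65 ± 0.09, edgeR FDR 4.92e-16), and was higher in BMP/FGF than in BMP (13.5 ± 1.43 against 4.7 ± 0.66 CPM, log2FC 1.53 ± 0.11, edgeR FDR 1.73e-08). Loxl2, a cross-linking lysyl oxidase, fell in BMP (5.29 ± 0.339 against 15.2 ± 1.71 CPM, log2FC -1.52 ± 0.11, edgeR FDR 2.87e-10) and in BMP/FGF (7.5 ± 0.749 against 15.2 ± 1.71 CPM, log2FC -1.02 ± 0.10, edgeR FDR 4.37e-08). Loxl3, of the same family, rose in BMP (19.4 ± 2.35 against 8.97 ± 0.858 CPM, log2FC 1.11 ± 0.098, edgeR FDR 8.38e-09). Pcolce, an enhancer of carboxyl propeptide removal, was lower in BMP/FGF than in EGF/FGF (1.77 ± 0.351 against 5.21 ± 0.64 CPM, log2FC -1.55 ± 0.23, edgeR FDR 8.41e-06) and than in BMP (1.77 ± 0.351 against 2.9 ± 1.15 CPM, log2FC -0.69 ± 0.25, edgeR FDR 0.0357). Pcolce2, its paralog, was higher in BMP/FGF than in BMP (11.0 ± 1.27 against 7.43 ± 1.17 CPM, log2FC 0.57 ± 0.11, edgeR FDR 0.000384).

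Of 10 receptor genes 7 were tested. Against EGF/FGF, 3 rose and 3 fell in BMP, and 2 rose and 2 fell in BMP/FGF. From BMP to BMP/FGF, 2 rose and 2 fell (medians -0.43, -0.15 and 0.27). Mrc2, which takes up collagen for breakdown, fell in BMP (1.48 ± 0.653 against 13.2 ± 1.05 CPM, log2FC -3.15 ± 0.17, edgeR FDR 8.33e-12) and in BMP/FGF (1.47 ± 0.168 against 13.2 ± 1.05 CPM, log2FC -3.16 ± 0.17, edgeR FDR 9.17e-12). Ddr1, a receptor tyrosine kinase for collagen, rose in BMP (1090.2 ± 96.4 against 471 ± 30.7 CPM, log2FC 1.21 ± 0.068, edgeR FDR 1.66e-11) and less in BMP/FGF (808 ± 13.3 against 471 ± 30.7 CPM, log2FC 0.78 ± 0.068, edgeR FDR 7.4e-09), where it was lower than in BMP (808 ± 13.3 against 1090.2 ± 96.4 CPM, log2FC -0.43 ± 0.068, edgeR FDR 7.17e-05). Itgb1, the integrin beta subunit shared by the collagen integrins, fell in BMP (664 ± 57.0 against 1379 ± 30.3 CPM, log2FC -1.06 ± 0.062, edgeR FDR 3.19e-11) and was higher in BMP/FGF than in BMP (905 ± 8.94 against 664 ± 57.0 CPM, log2FC 0.45 ± 0.062, edgeR FDR 2.18e-05). Itga2, an alpha subunit for collagen, was higher in BMP/FGF than in EGF/FGF (59.5 ± 4.41 against 27.1 ± 0.312 CPM, log2FC 1.14 ± 0.092, edgeR FDR 2.55e-09) and than in BMP (59.5 ± 4.41 against 47.6 ± 7.0 CPM, log2FC 0.33 ± 0.089, edgeR FDR 0.00703).

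Of 16 matrix partners 12 were tested. Against EGF/FGF, 6 rose and 4 fell in BMP, and 7 rose and 3 fell in BMP/FGF. Between BMP and BMP/FGF, 3 rose and 2 fell (medians 0.25, 0.77 and 0.00095). Fn1, fibronectin, fell in BMP (14.2 ± 0.592 against 77.4 ± 14.7 CPM, log2FC -2.43 ± 0.084, edgeR FDR 2.39e-14) and in BMP/FGF (11.1 ± 2.36 against 77.4 ± 14.7 CPM, log2FC -2.80 ± 0.087, edgeR FDR 5.72e-15), and was lower in BMP/FGF than in BMP (11.1 ± 2.36 against 14.2 ± 0.592 CPM, log2FC -0.37 ± 0.093, edgeR FDR 0.00424). Tnxb, tenascin X, rose in BMP (3.66 ± 0.759 against 0.505 ± 0.0488 CPM, log2FC 2.84 ± 0.26, edgeR FDR 1.11e-08) and in BMP/FGF (2.99 ± 0.793 against 0.505 ± 0.0488 CPM, log2FC 2.54 ± 0.26, edgeR FDR 8.21e-08). Fmod, fibromodulin, a small proteoglycan of fibrils, had 255 summed counts in BMP against 3 in EGF/FGF, a ratio of 88.0 with an exact 95% interval of 29.8 to 429, and was lower in BMP/FGF than in BMP (0.812 ± 0.335 against 3.43 ± 0.712 CPM, log2FC -2.06 ± 0.26, edgeR FDR 6.46e-06). Sparc, a collagen-binding matrix protein, was higher in BMP/FGF than in BMP (1988 ± 68.9 against 1576 ± 307 CPM, log2FC 0.35 ± 0.091, edgeR FDR 0.00539).

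Each of the 11 collagen genes that were not tested had at most 16 counts in any library. Col10a1, Col1a2, Col24a1, Col25a1 and Col19a1 did not exceed 3 counts. Col6a5, a further type VI chain, had 9 to 16 counts per EGF/FGF library, at most 1 per BMP library and 0 in all BMP/FGF libraries. This made it at least 3.62-fold lower in BMP/FGF when set against 3 counts per library. Col7a1, the anchoring fibril collagen, had 2 to 10 counts, and Col4a4, Col8a2, Col6a4 and Col17a1 had at most 15, 7, 7 and 5. In BMP against EGF/FGF, the summed counts of Col6a5 were 1 against 46, a ratio of EGF/FGF to BMP of 44.5 with an exact 95% interval of 7.59 to 1794. In the other direction, the ratio of BMP to EGF/FGF was 8.28 for Col6a4 (interval 1.95 to 74.2), 4.66 for Col8a2 (1.53 to 18.9) and 3.79 for Col17a1 (1.00 to 21.2). These intervals cover counting error only.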

How the data were processed

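RNA-seq was made from 12 samples with a low-input BGISEQ-500RS protocol. Reads were trimmed (Trim Galore 0.5.0) and assigned to mm10 transcripts (kallisto 0.44.0), and the authors deposited whole-number estimated counts per gene. They also deposited log2 values (regularized logarithm, DESeq2 1.27.32), used here only as an alternative. Whether the kit marked strand is not given in the sources used here. All per-sample columns were used.

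The counts were analysed in R 4.3.3 with edgeR 4.0.16: filterByExpr by condition (13312 of 17365 genes kept), TMM, and the quasi-likelihood test with condition and line as terms over all 12 libraries, two-sided, with Benjamini-Hochberg adjustment over all tested genes. The difference between lines was a line by condition interaction. Calls used an FDR under 0.05, and 1.5 on the log2 scale as the study's fold threshold. In a condition with 3 counts or fewer in every library, ratios of summed counts are given with exact binomial intervals (95%), and against all-zero libraries a bound set by 3 counts per library. Both cover counting error only. Alternatives used DESeq2 1.42.0, limma 3.58.1, other scaling, filter, terms and subsets of libraries. The fits were tested on simulated data. No replicate pair agreed within sampling noise (chi-square per gene 12.4 for the BL6 BMP pair and 2.14 to 4.76 for the other pairs). GENCODE vM21 (GRCm38) gave lengths and positions.

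Collagen genes averaging 5 CPM or more over all libraries, or past 1.5 at FDR under 0.05 with at least 1 CPM in the higher condition, are given library by library (23 genes). Of each further list, the 3 called genes with the largest change averaging 1 CPM or more, in each comparison, are named. The members and lists were chosen with earlier results of these data known. Count ratios between chains were chosen after the values were seen.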

Additional observations from a re-analysis of the deposited data

Results flagged for a closer look

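In 5 of 69 groups of 4 libraries (the 23 collagen genes given library by library in 3 conditions), a library lay apart from the other 3, with a gap over the range above the 95% critical value of 0.829. For 4 independent values from a single normal distribution, chance gives about 1 in 20 groups. Each group here held libraries of both lines, and 1 count beside libraries at 0 is always flagged, so this rate is only a rough guide. Col11a2 was 2.10 CPM in ANS4 BMP/FGF replicate 1, below the others at 2.63 to 2.68. Col22a1 was 1.51 CPM in the same library, below the others at 2.69 to 2.91. Col23a1 was 1.24 CPM in ANS4 EGF/FGF replicate 2, above the others at 0.885 to 0.932. Col3a1 in BL6 BMP replicate 2 (0.0521 CPM) and Col9a1 in BL6 EGF/FGF replicate 2 (0.0517 CPM) each rested on 1 count where the other 3 libraries had 0.

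The response differed between the lines, by edgeR's interaction term at an FDR under 0.05, in 15 comparisons of 10 collagen genes. Differences are given as the BL6 minus the ANS4 log2 fold change. In BMP against EGF/FGF they were 0.85 for Col11a1, -0.43 for Col18a1, -0.38 for Col4a1, -0.74 for Col5a1, -0.87 for Col6a1, -1.85 for Col8a1 and -1.44 for Col22a1. In BMP/FGF against EGF/FGF the difference was -1.17 for Col5a3. In BMP/FGF against BMP they were 0.34 for Col4a1, 0.43 for Col4a5, 0.45 for Col4a6, 0.50 for Col5a1, 0.72 for Col6a1, 1.20 for Col8a1 and 1.83 for Col22a1. The last comparison shares the BMP libraries with the first, and 5 genes (Col4a1, Col5a1, Col6a1, Col8a1 and Col22a1) stand in both.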

How the results depend on the processing

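Of the single-gene values of the 23 collagen genes, 1429 of the recomputed values kept their direction and their side of the threshold, 46 no longer passed, 17 now passed and 26 changed sign, all 26 in comparisons that did not pass over both lines. Col11a1 in BMP against EGF/FGF became 0.0054 with library size only, 0.0034 by limma on the deposited log2 values, 0.011 with no line term, 0.39 in BL6 alone and -0.15 to 0.103 without single libraries. Col6a1 in BMP/FGF against EGF/FGF became -0.031 in BL6 alone and -0.014 to 0.15 without single libraries. In BMP/FGF against BMP, Col26a1 became -0.00894 with library size only, -0.0541 by limma, -0.0525 in BL6 alone and -0.0358 to 0.12 without single libraries. Col8a1 became -0.29 and Col9a1 0.36 in ANS4 alone, and without single libraries they ranged from -0.030 to 0.56 and from -0.31 to 0.060. Col11a2 became 0.044, Col5a1 0.19 and Col22a1 0.39 in BL6 alone, and without single libraries the first pair ranged from -0.14 to 0.058 and from -0.16 to 0.0077.

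In BL6 alone 11 collagen genes were higher in BMP/FGF than in EGF/FGF. Counts of collagen genes that differed between lines ranged from 4 to 10 in BMP against EGF/FGF, 0 to 3 in BMP/FGF against EGF/FGF (3 with only the 8 libraries compared) and 3 to 9 in BMP/FGF against BMP without single libraries. The count of lower collagen genes in BMP/FGF against BMP ranged from 3 to 7 without single libraries. The pathway lists had 15 higher genes in ANS4 alone, and 3 lower with only the 8 libraries compared, 8 in ANS4 alone, 2 in BL6 alone and 3 to 6 without single libraries. Without Col4a5 the summed levels were 1002, 496 and 652 CPM. Fewer libraries enter the fits in single lines. Other causes were not tested.

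Replicate numbers were shared between conditions, and differences between same-numbered libraries correlated from -0.071 to 0.053. Whether same-numbered libraries were handled together is not given in the sample labels and was not tested. With line and number as a replicate block, 2 collagen calls were lost: Col26a1 in BMP against EGF/FGF (-0.30) and Col4a2 in BMP/FGF against EGF/FGF (0.19). Changes under about 3 counts per library are beyond this depth.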
